A study of Mus musculus with 31 samples.

Results

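The MYC and MAX network was read as 6 genes, Myc, Mycn, Max, Mxd4, Mxi1 and Mnt, chosen by name from the family and followed over 6 groups of mouse thymus and thymic tumor samples and over single tumors. They were 6 of the 18192 genes that a single-gene probe set named, and 13 of 34944 such probe sets. Myc and Max had 1 probe set each, Mycn 3, Mxd4 4, Mxi1 2 and Mnt 2, and all 13 were above the filter on low values. RNA abundance was measured with Affymetrix mouse expression arrays in thymic tumors of KO (NDR1-/-, n = 7), HT (NDR1+/-, n = 7) and WT (NDR1+/+, n = 5) mice given 100 mg/kg N-ethyl-N-nitrosourea (ENU, an alkylating mutagen), and in untreated normal thymi of KO, HT and WT mice (n = 4 each). Stk38 encodes NDR1, a serine/threonine kinase, and all mice were of the C57BL/6 strain. The tumors were taken when they developed or at the latest 9 months after ENU, and were frozen before a piece went to RNA, per the series' design text. The titles name thymocytes and tumor cells where the tissue label reads thymus. The sources used here give no ages and do not say that arrays stand for different animals, so p-values measure the spread between arrays, part of which may be technical. ENU, time since treatment and tumor state cannot be told apart in the tumor against thymus comparison. There were 17 female and 2 male tumors (1 KO and 1 HT), against 6 female and 6 male thymi (2 of each sex per genotype).

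MYC and its neural relative MYCN are transcription factors that must pair with MAX to bind DNA, where the pair recruits coactivators and raises transcription of genes for growth, ribosome assembly and nucleotide synthesis. MXD4, MXI1 and MNT also pair with MAX, bind the same E-box sequence and recruit SIN3 and histone deacetylase corepressors, so that the balance of partners sets the output of shared target genes. In the thymus, Myc is a known Notch1 target that supports the growth of early T cell precursors, and Notch1 and MYC activity are hallmarks of mouse thymic lymphoma.

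The E-box CACGTG is the shared binding sequence of these MAX pairs, and it reads the same on both strands. RefSeq promoters (assembly GRCm38.p6, 250 bases before to 50 bases after a transcription start) were found for 5 of the 6 members, 7 promoters in all. The motif was present once in the promoters of Max, Mxd4 and Mnt and was not in the promoter of Mycn or in any of the 3 promoters of Mxi1. Over all 32851 promoters, 7.15% held it. The windows show the motif in capitals with 18 bases on each side, on the strand of the gene. They lie at chr12:76962228-76962269 (minus strand, first base of the motif at -3 from the start), chr5:34187906-34187947 (minus strand, -219) and chr11:74830783-74830824 (plus strand, -123).
Max: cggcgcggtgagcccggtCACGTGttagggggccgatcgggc
Mxd4: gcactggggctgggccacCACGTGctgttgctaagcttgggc
Mnt: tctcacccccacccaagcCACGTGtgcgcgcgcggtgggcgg
These matches describe the reference sequence, and the arrays hold no measure of binding to it.

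Values are log2(intensity + 1), differences are on that scale with the standard error (SE) of the fit, and a gene was called at an adjusted p under 0.05 over 13644 genes (limma, Benjamini-Hochberg, sex as covariate). Each gene is given by its probe set of highest mean unless another is named. In these bulk samples, fewer cells of a type and less RNA per cell cannot be told apart. The deposited values have the same median intensity in every array, so that median gives no measure of an array's own signal. The log2 3'/5' ratio of the actin and Gapdh control probe sets is read as RNA integrity where labelling starts at the 3' end, with higher values in degraded RNA. The label protocol names a whole-transcript assay, for which that reading need not hold, so the values below that move with it (Mxi1, Mnt, Mxd4) are set against a ratio whose source was not tested. It ran from 0.18 to 4.88 in tumors and from 0.26 to 0.50 in thymi, and 15 of 19 tumors were above every thymus. The mean over 9 B cell and plasma cell markers was highest in KO tumor 06 (12.09), HT tumor 01 (12.01), KO tumor 04 (11.97) and HT tumor 03 (10.71). These are called the 4 B-marker-high tumors. In the other 15 tumors it was at most 9.72, and in the thymi at most 6.89. Of the defining markers of CD4 and CD8 double-positive thymocytes, 5 of 7 fell in tumors, led by Cd8b1 (-3.36) and Cd4 (-3.59), and both were below every thymus in 19 of 19 tumors. At least 18 of 19 tumors were below every thymus for 3.28% of all genes. Such shares were not computed for lower counts, for tumors above every thymus over all genotypes, or for single probe sets. The targeted gene Stk38 (probe set of highest mean) was 8.73 to 13.08 in KO tumors, 10.71 to 12.77 in HT tumors and 11.38 to 13.04 in WT tumors, so tumors labelled KO overlapped those labelled WT. In thymi it was 10.64 to 11.34 in KO, 11.33 to 11.58 in HT and 11.69 to 12.03 in WT. The sources do not say whether its probe sets lie in the deleted part, so genotypes here are those of the labels. The median within-group SD over all genes was 0.67, 0.62 and 0.46 in KO, HT and WT tumors, against 0.19, 0.18 and 0.17 in KO, HT and WT thymi.

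**Figure D1:**
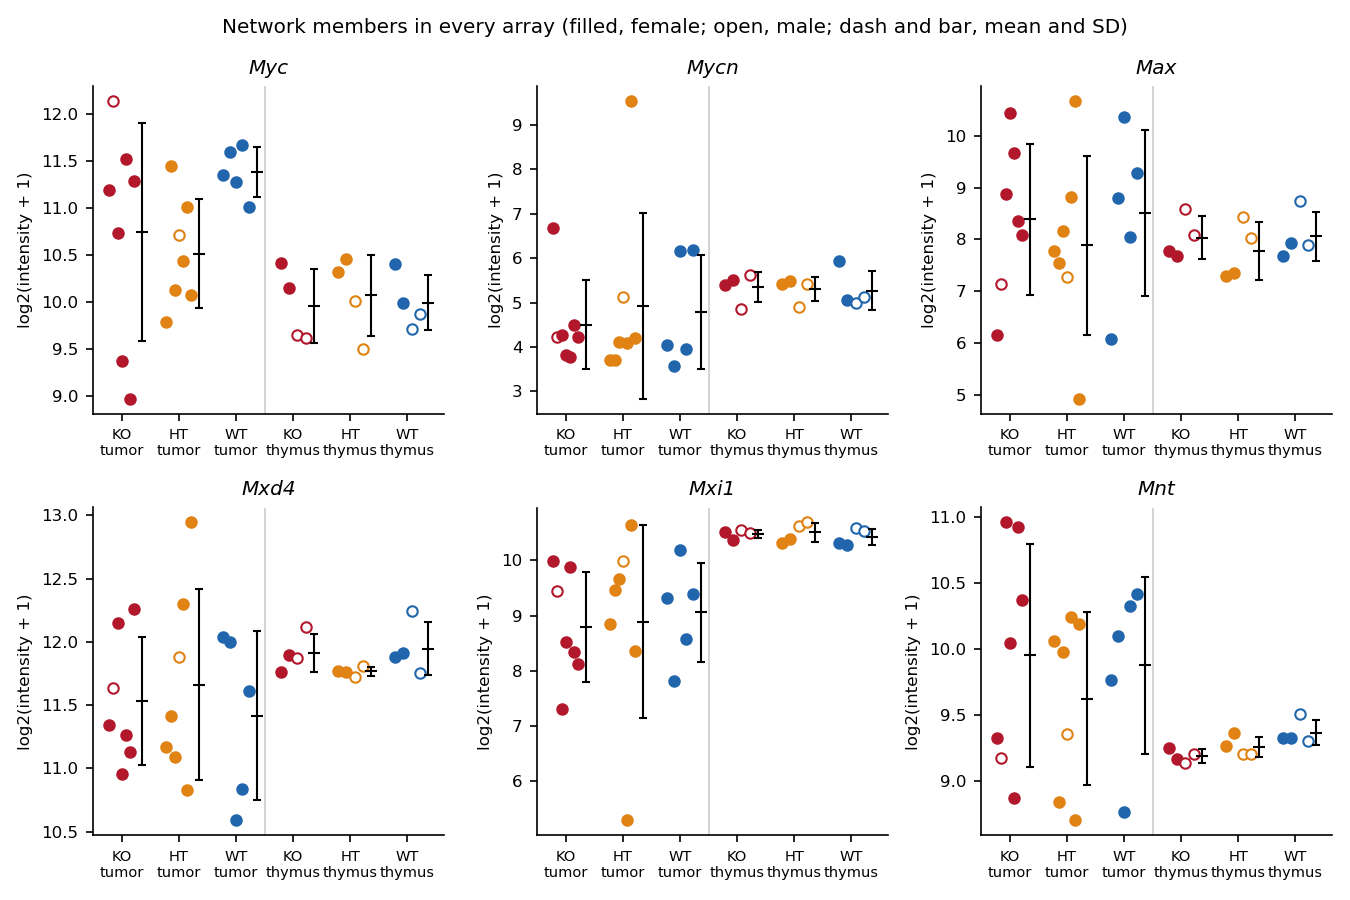
The 6 network members in every array. The y axis is log2(intensity + 1), points are arrays (filled for female, open for male), and dashes with bars are the group mean and SD (n = 7, 7 and 5 for KO, HT and WT tumors, n = 4 for each thymus group). The SD over 19 tumors exceeds that over 12 thymi for each member, the 5 WT tumors lie above the WT thymi for Myc, and Mxi1 lies below the thymi in 18 of 19 tumors.

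Myc rose and Mxi1 fell in tumors relative to thymi, while Mycn, Max, Mxd4 and Mnt were not called at their main probe sets. These 2 calls among 6 members compare with 24.7% of all 13644 genes called in the same comparison. The differences were +0.87 (SE 0.282, adjusted p = 0.0258 in limma) for Myc and -1.35 (SE 0.421, adjusted p = 0.0205) for Mxi1. The median difference over the 6 members was +0.02, beside +0.05 over all genes tested.

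Myc, which encodes the main activator of the network, was 8.97 in the lowest, 11.20 in the median and 12.14 in the highest KO tumor. It was 9.79 in the lowest, 10.44 in the median and 11.45 in the highest HT tumor. The 5 WT tumors had 11.36, 11.60, 11.28, 11.68 and 11.01. KO tumors 04 (9.37) and 06 were below every thymus, HT tumors 01, 03, 05 and 07 were within the thymus range, and the WT tumors kept close together. In the thymi, Myc was 10.42, 10.15, 9.65 and 9.61 in KO, 10.32, 10.46, 10.01 and 9.50 in HT, and 10.40, 9.99, 9.71 and 9.87 in WT. The 3 thymus groups overlapped fully. By group mean the order was WT tumor 11.39 ± 0.266 (SD, n = 5), KO tumor 10.75 ± 1.16 (n = 7), HT tumor 10.52 ± 0.583 (n = 7), HT thymus 10.07 ± 0.429, WT thymus 9.99 ± 0.295 and KO thymus 9.96 ± 0.391 (n = 4 each). Neighbours in that order had overlapping values, and WT tumors were the group set apart from all thymi: all 5 were above every WT thymus, as was the case for 11.1% of all genes. Over genotypes, 13 of 19 tumors were above every thymus, 2 were below and 4 were within the thymus range.

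The Myc call was lost in female arrays alone and when either male tumor was left out. Sex was a covariate of the reported fit, and whether the tumor difference varies with sex was not tested. In female arrays alone, Myc averaged 10.76 ± 0.825 in 17 tumors and 10.29 ± 0.183 in 6 thymi, a difference of +0.50 that did not pass (adjusted p = 0.309 in limma, where 10.8% of genes were called). Without KO tumor 02, the male KO tumor and the highest of all, the difference was +0.62 (adjusted p = 0.0931), and without HT tumor 04, the male HT tumor, it was +0.83 (adjusted p = 0.0505). Without the 4 B-marker-high tumors, Myc was +1.08 (SE 0.177), and it was among 34.2% of genes called. Those tumors were low for Myc, so a larger difference and smaller SE follow in part from leaving them out. With the 3'/5' ratio in the model, where 18.4% of genes were called, Myc was +1.01 (SE 0.302) and was called.

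Mycn, whose product is the neural MYC protein and acts on the same E-boxes, was low in most tumors and far above the thymi only in HT tumor 06. It was 3.77 in the lowest, 4.23 in the median and 6.68 in the highest KO tumor. It was 3.70 in the lowest, 4.11 in the median and 9.54 in the highest HT tumor. The WT tumors had 4.05, 3.57, 6.16, 3.96 and 6.18. HT tumor 06, KO tumor 01 and WT tumors 03 and 05 were above every thymus, and 14 tumors were below every thymus. Thymi had 5.39, 5.52, 4.86 and 5.62 in KO, 5.42, 5.49, 4.91 and 5.42 in HT, and 5.93, 5.05, 4.99 and 5.12 in WT. The group means were 4.50 ± 0.997 in KO, 4.93 ± 2.09 in HT and 4.79 ± 1.28 in WT tumors, all lower than 5.35 ± 0.336 in KO, 5.31 ± 0.270 in HT and 5.27 ± 0.440 in WT thymi, but all groups overlapped. The tumor difference was -0.66 (SE 0.513, adjusted p = 0.360). In HT tumor 06 the intensity of this probe set was 745, against a highest of 59.9 in any thymus. Its median over the tumors was 4.19, so most tumor values were low signals. The other Mycn probe sets stayed near the lowest signals of the array: 1425922_a_at averaged 4.29 ± 0.406 in tumors and 4.17 ± 0.146 in thymi, and 1425923_at 4.14 ± 0.334 in tumors and 3.92 ± 0.146 in thymi. HT tumor 06 was also the highest tumor for 1425922_a_at (5.11), and KO tumor 03 for 1425923_at (5.20). KO tumor 01 was the lowest KO tumor for 1425923_at (3.88).

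Max, which encodes the shared partner of the other members, varied widely among tumors and was not called. It was 6.15, 8.36 and 10.44 in the lowest, median and highest KO tumor, and 4.93, 7.78 and 10.67 in the lowest, median and highest HT tumor. The WT tumors had 6.08, 8.79, 10.35, 8.05 and 9.29. Tumors lay on both sides of the thymi, with 8 above every thymus and 5 below. Thymi had 7.78, 7.68, 8.59 and 8.09 in KO, 7.28, 7.35, 8.43 and 8.03 in HT, and 7.68, 7.92, 8.75 and 7.89 in WT. In order, the means were WT tumor 8.51 ± 1.60, KO tumor 8.39 ± 1.46, WT thymus 8.06 ± 0.471, KO thymus 8.03 ± 0.411, HT tumor 7.88 ± 1.73 and HT thymus 7.78 ± 0.553, and all neighbours overlapped. The difference was +0.32 (SE 0.533, adjusted p = 0.689). In female arrays alone Max averaged 8.36 ± 1.58 in 17 tumors and 7.62 ± 0.248 in 6 thymi, with 12 tumors above every female thymus and 3 below, and the difference was +0.75 (adjusted p = 0.480 in limma). With the 3'/5' ratio in the model it was +0.83 (adjusted p = 0.317 in limma).

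Mxi1, which encodes a MAX partner and transcriptional repressor, had more tumors outside the thymus range on one side than any other member at its main probe set. It was 7.30, 8.52 and 9.98 in the lowest, median and highest KO tumor, and 5.30, 9.46 and 10.65 in the lowest, median and highest HT tumor. The WT tumors had 9.32, 7.82, 10.20, 8.57 and 9.39. All but HT tumor 06 were below every thymus (18 of 19), which 3.28% of all genes matched or exceeded. Thymi kept within a narrow range, at 10.51, 10.38, 10.56 and 10.49 in KO, 10.32, 10.39, 10.62 and 10.69 in HT, and 10.31, 10.29, 10.58 and 10.53 in WT. The means were 9.06 ± 0.903 in WT, 8.89 ± 1.75 in HT and 8.80 ± 0.996 in KO tumors, which overlapped, and 10.51 ± 0.177 in HT, 10.48 ± 0.0760 in KO and 10.42 ± 0.149 in WT thymi, which also overlapped. The other Mxi1 probe set, 1425732_a_at, fell by 2.09 (SE 0.490, adjusted p = 0.00310) in the fit of 1 row a probe set, where 23.5% of 26208 probe sets were called. It averaged 5.39 ± 1.38 in tumors and 7.56 ± 0.520 in thymi.

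The level of Mxi1 moved with the 3'/5' ratio. Over 19 tumors its level and the log2 3'/5' ratio had r = -0.57 (2-sided permutation p = 0.0185) and rho = -0.85 (permutation p = 1e-05, the smallest that 100000 resamples can give), and r was -0.81 without the 2 tumors farthest from the median ratio. After adjustment over the 4 such relations computed, of Max, Mxd4, Mxi1 and Mnt, the p was 0.0247 for r. These 4 were added after the values were seen and were adjusted apart from the 25 relations described below. Max had r = -0.45 (permutation p = 0.0554) and rho = -0.20 with the ratio. With the ratio in the model the difference at the main probe set was -0.84 (adjusted p = 0.140 in limma) and was no longer called, while 1425732_a_at still fell by 1.51 (SE 0.454, adjusted p = 0.0233). In the 4 tumors whose ratio was not above the thymi, Mxi1 was 9.88 in KO tumor 05, 9.46 in HT tumor 02, 10.65 in HT tumor 06 and 10.20 in WT tumor 03. All 4 were above the median tumor (9.32), and 3 of the 4 were still below every thymus. In female arrays alone the difference was -1.54, with an adjusted p of 0.0818 in limma.

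Mxd4, another MAX-binding repressor, gave different answers at its 4 probe sets. The main one, 1434378_a_at, was 10.96, 11.35 and 12.26 in the lowest, median and highest KO tumor, and 10.83, 11.41 and 12.94 in the lowest, median and highest HT tumor. The WT tumors had 12.04, 12.002, 10.59, 10.84 and 11.61. These lay on both sides of the thymi, with 3 tumors above every thymus and 12 below. Thymi had 11.76, 11.89, 11.87 and 12.12 in KO, 11.77, 11.76, 11.73 and 11.81 in HT, and 11.88, 11.91, 12.24 and 11.75 in WT. From low to high, the means were WT tumor 11.42 ± 0.668, KO tumor 11.53 ± 0.504, HT tumor 11.66 ± 0.755, HT thymus 11.77 ± 0.0335, KO thymus 11.91 ± 0.151 and WT thymus 11.95 ± 0.209, with overlap between neighbours. The difference of -0.29 (SE 0.218, adjusted p = 0.347) was not called, whereas the mean of the gene's probe sets fell by 0.71 (adjusted p = 0.000511 in limma). Probe sets 1422574_at and 1434379_at fell by 1.42 (SE 0.289, adjusted p = 0.000859) and 1.09 (SE 0.275, adjusted p = 0.00536). The first averaged 5.71 ± 0.844 in tumors and 7.34 ± 0.383 in thymi, with 18 of 19 tumors below every thymus, and the second 8.49 ± 0.83 in tumors and 9.71 ± 0.116 in thymi, with 16 of 19 below. The remaining probe set, 1422575_at, averaged 3.77 ± 0.272 in tumors and 3.81 ± 0.164 in thymi. The sources used here do not say which transcript end each probe set reads. The main probe set was higher in tumors with a higher 3'/5' ratio (r = 0.70, permutation p = 0.000840, rho = 0.55, n = 19, and r = 0.40 without the 2 tumors farthest from the median ratio). With that ratio in the model it fell by 0.61 (adjusted p = 0.0146 in limma), and the probe sets 1422574_at (-0.95) and 1434379_at (-0.81) kept adjusted p of 0.00249 and 0.0382.

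Mnt, which encodes a widely expressed MAX partner that opposes MYC, was higher in most tumors but was not called. It was 8.87, 10.05 and 10.96 in the lowest, median and highest KO tumor, and 8.70, 9.98 and 10.25 in the lowest, median and highest HT tumor. The WT tumors had 9.77, 10.10, 8.77, 10.33 and 10.42. They fell on both sides of the thymi, with 12 tumors above every thymus and 4 below. Thymi had 9.25, 9.17, 9.14 and 9.21 in KO, 9.27, 9.36, 9.20 and 9.21 in HT, and 9.33, 9.33, 9.51 and 9.30 in WT. In order, the means were KO tumor 9.95 ± 0.847, WT tumor 9.88 ± 0.669, HT tumor 9.63 ± 0.653, WT thymus 9.37 ± 0.0962, HT thymus 9.26 ± 0.0746 and KO thymus 9.19 ± 0.0507, and neighbours overlapped. The difference was +0.45 (SE 0.241, adjusted p = 0.171), and it passed with array weights by group (+0.53, adjusted p = 0.00596 in limma) and without the sex term (+0.55, adjusted p = 0.0466). Mnt also moved with the 3'/5' ratio, with r = 0.63 (permutation p = 0.00238), rho = 0.84 (permutation p = 6e-05) and r = 0.86 without the 2 tumors farthest from the median ratio (n = 19). The 4 tumors below every thymus, at 8.87 in KO tumor 05, 8.84 in HT tumor 02, 8.70 in HT tumor 06 and 8.77 in WT tumor 03, were the 4 whose ratio was not above the thymi. With the ratio in the model the difference was +0.13. The other Mnt probe set, 1418193_at, averaged 3.83 ± 0.266 in tumors and 3.74 ± 0.105 in thymi, near the lowest signals of the array.

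**Figure D2:**
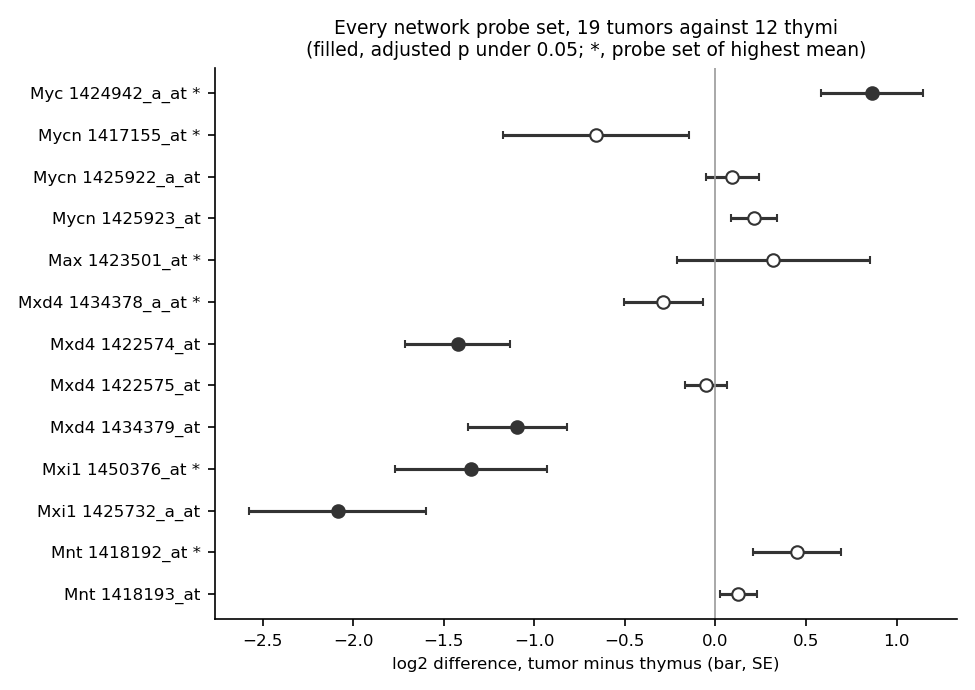
Tumor minus thymus difference of log2(intensity + 1) at each of the 13 network probe sets. Points are the fitted difference over 19 tumors and 12 thymi, bars are the SE, and filled points had an adjusted p under 0.05. The Myc probe set lies at +0.87, both Mxi1 probe sets and 2 of the 4 Mxd4 probe sets lie below -1, and no probe set of Mycn, Max or Mnt is filled.

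By genotype, the question was whether loss of NDR1 changed the network before or after tumors arose, and no member was called in any genotype comparison. In thymus, limma called 0.191% of all genes in KO relative to WT, 0.022% in HT relative to WT and 0.0586% in KO relative to HT. The member differences in thymus ran from -0.29 (Max, HT against WT) to +0.26 (Max, KO against HT), and Mnt in KO against WT thymi, at -0.18, had the smallest unadjusted p (0.0310, adjusted p = 0.889 in limma). It was the 1 member difference of 18 in thymus with an unadjusted p under 0.05. Among tumors limma called 0% of genes in KO relative to WT (462 at an unadjusted p under 0.05), 0% in HT relative to WT (382) and 0% in KO relative to HT (150). Myc was -1.003 in HT relative to WT tumors (SE 0.443, unadjusted p = 0.0371, adjusted p = 0.932 in limma) and -0.77 in KO relative to WT tumors (SE 0.443, adjusted p = 0.872). The 4 B-marker-high tumors, all KO or HT, were among the 5 lowest tumors for Myc. Without them, a choice that by itself raises the KO mean, Myc was -0.10 in KO relative to WT tumors. In HT relative to WT tumors Myc stayed between -1.003 and -0.74 over 12 alternative settings, the fit without those 4 among them.

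Within a genotype, the tumor against thymus difference of Myc was +0.78 in KO (SE 0.440, adjusted p = 0.320), +0.44 in HT (SE 0.440, adjusted p = 0.677) and +1.38 in WT (SE 0.482, adjusted p = 0.0825). That of Mxi1 was -1.50 in KO, -1.43 in HT and -1.11 in WT. In these comparisons 4.94% of genes in KO, 3.53% in HT and 6.87% in WT were called, and 0 of the 6 members in each (1 in each at an unadjusted p under 0.05, Mxi1 in KO and HT and Myc in WT). The fit took a shared variance per gene over all groups. For Myc the SD was 1.16 in KO tumors, 0.266 in WT tumors and 0.295 in WT thymi. The SE within WT therefore includes the wider spread of the KO tumors. With array weights by group, Myc within WT was +1.14 and was called (adjusted p = 0.00696 in limma). Over all alternatives, Myc within WT was called in 4 and not called in 38. The difference between genotypes was itself tested: for Myc it was -0.60 (SE 0.63) for KO minus WT and -0.95 (SE 0.63) for HT minus WT, with 0% of all genes called for KO minus WT (111 at an unadjusted p under 0.05) and 0% for HT minus WT (142). Without the 4 B-marker-high tumors, Myc passed within KO (+1.36, adjusted p = 0.00265 in limma) and within WT (+1.29, adjusted p = 0.00537), and the KO minus WT difference was +0.07, against -0.60 with them. In the same fit HT minus WT was -0.68. Myc averaged 9.57 in those 4 KO and HT tumors and 11.17 in the other 15. Leaving them out therefore raises the KO and HT tumor means and narrows the shared variance, so these changes follow in part from the choice.

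Across single tumors, Myc varied together with the mean of genes it is known to activate and, about as closely, with that of cell division genes. How many other gene lists would reach such an r was not computed. Of 25 relations computed among members and between Myc or Mycn and 4 list means and the 3'/5' ratio, 6 passed an adjusted p under 0.05 for Pearson's r, and 4 of these were of Myc with a list. With the mean of 20 MYC-activated genes Myc had r = 0.86 (2-sided permutation p = 2e-05, adjusted p = 0.000250, n = 19) and rho = 0.76 (permutation p = 0.000200, adjusted p = 0.00233). The r was 0.78 without the 2 tumors farthest from the median of the list. With the mean of 14 cell division genes it had r = 0.88 (permutation p = 2e-05, adjusted p = 0.000250) and rho = 0.76 (permutation p = 0.000280), and r was 0.79 without such 2 tumors. With the mean of 9 Notch receptors and targets r was 0.73 (permutation p = 0.000790, adjusted p = 0.00395), rho was 0.48 (permutation p = 0.0397, adjusted p = 0.165), and r was 0.48 without KO tumors 04 and 06. With the mean of 9 B cell markers r was -0.81 (permutation p = 0.000120, adjusted p = 0.00100), rho was -0.58 (permutation p = 0.0103, adjusted p = 0.0616), and r was -0.71 without HT tumor 01 and KO tumor 06. With the 3'/5' ratio Myc had r = -0.25 (permutation p = 0.291) and rho = -0.24 (permutation p = 0.330). In the 15 tumors outside the 4 B-marker-high ones that r was -0.52 (permutation p = 0.0494, adjusted p = 0.138).

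These 4 relations were weaker without the 4 B-marker-high tumors. Those tumors were picked by the B cell list, so leaving them out narrows its range. A smaller r with that list follows from the choice and says nothing more. Myc averaged 9.57 ± 0.503 in them (9.37 and 8.97 in KO tumors 04 and 06, 9.79 and 10.13 in HT tumors 01 and 03) and 11.17 ± 0.524 in the other 15. The same 4 had the lowest means of the MYC-activated, Notch and cell division lists. Leaving them out therefore narrows the range of Myc and of these lists too, and a smaller r cannot be told apart from that narrowing. Among the other 15 tumors r was 0.62 with the MYC-activated list (permutation p = 0.0132, adjusted p = 0.0996), 0.56 with the cell division list (permutation p = 0.0311, adjusted p = 0.129), -0.03 with the Notch list (adjusted p = 0.918) and -0.38 with the B cell list. None passed adjustment over the 25 relations in the permutation tests of those 15 tumors. With values centred on the genotype means, all 4 passed in the 19 tumors (r = 0.84, 0.88, 0.77 and -0.82 in the same order). The points share their arrays, so whatever acts on a whole array enters both axes. Mycn had r = 0.01 with the MYC-activated list (permutation p = 0.968, n = 19) and r = 0.10 with Myc (permutation p = 0.680, rho = -0.16).

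**Figure D3:**
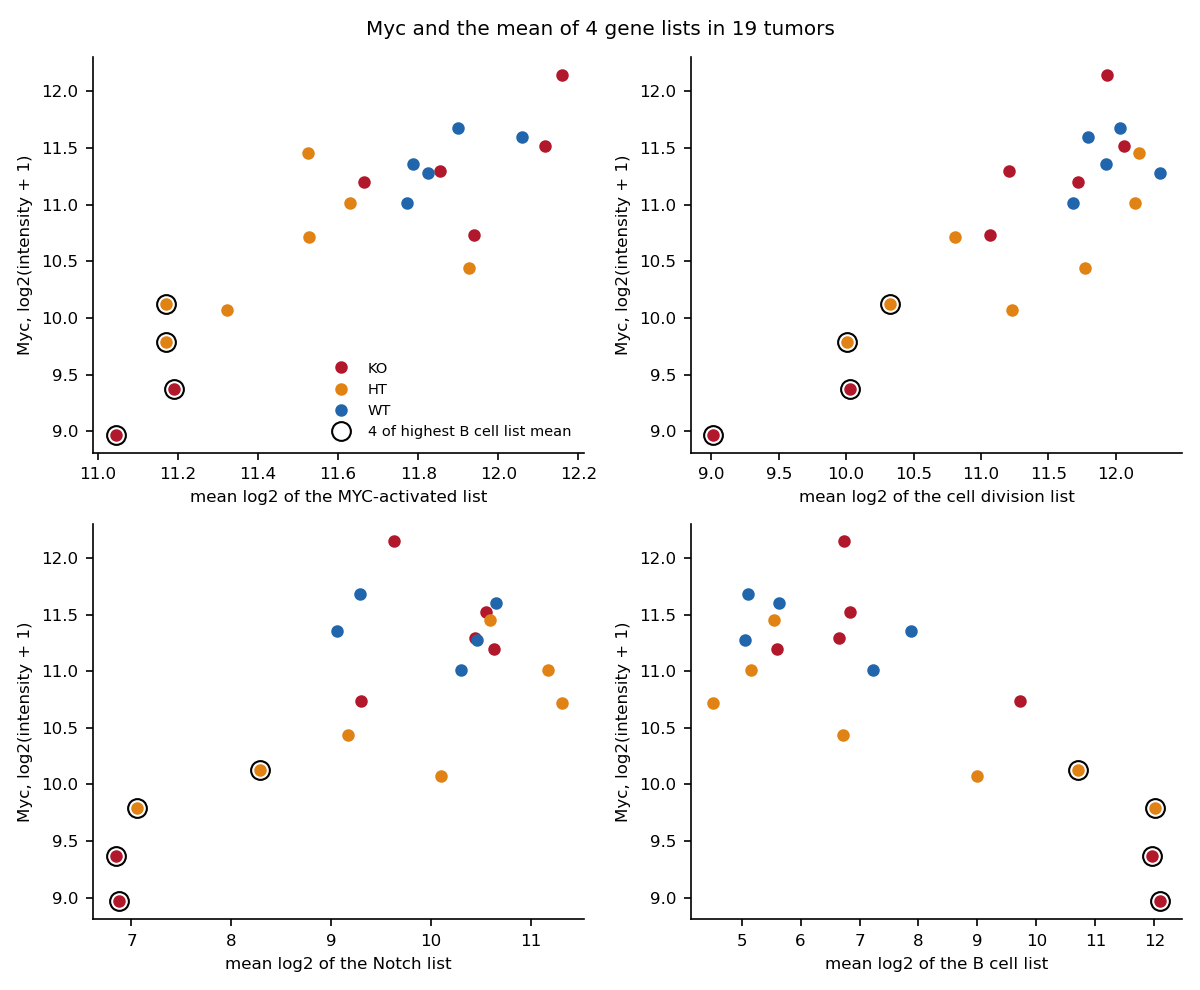
Myc against the mean log2 value of 4 gene lists in 19 tumors. Points are tumors coloured by genotype, and black rings mark the 4 B-marker-high tumors. The ringed tumors, with Myc from 8.97 to 10.13, sit at the low end of the MYC-activated, Notch and cell division lists and the high end of the B cell list, and among the other 15 no slope with the Notch list is seen.

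Mxi1 and Mnt, the repressors, ran in opposite directions across tumors. The relation had r = -0.69 (permutation p = 0.000670, adjusted p = 0.00395) and rho = -0.82 (permutation p = 1e-05, adjusted p = 0.000250), and r was -0.80 without HT tumor 05 and KO tumor 03. It passed also among the 15 tumors outside the 4 B-marker-high ones (r = -0.73, permutation p = 0.00123, adjusted p = 0.0307). Both genes moved with the 3'/5' ratio, in opposite directions. After a linear fit on the ratio was taken out of each, the relation was r = -0.52 (permutation p = 0.0177, n = 19), and rho = -0.10 (permutation p = 0.685) on ranks of the ratio. That step was added after the values were seen. Max and Mxd4 had r = -0.57 (permutation p = 0.0113, adjusted p = 0.0470) and rho = -0.46 (permutation p = 0.0473, adjusted p = 0.169). That relation rested on HT tumors 06 and 07, without which r was -0.32. It lost the call in 11 of 23 alternatives. The remaining 13 of the 15 member pairs did not pass as measured. With values centred on the genotype means, 8 relations passed, among them Myc and Mnt (r = -0.60, adjusted permutation p = 0.0222) and Mxd4 and Mxi1 (r = -0.54, adjusted permutation p = 0.0430). Mxd4 and Mxi1, at r = -0.54 (adjusted permutation p = 0.0559) in the 19 tumors as measured, passed in 7 of 23 alternatives, and Mycn and Mxi1 passed without HT tumor 05 (r = 0.61, adjusted permutation p = 0.0193).

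**Figure D4:**
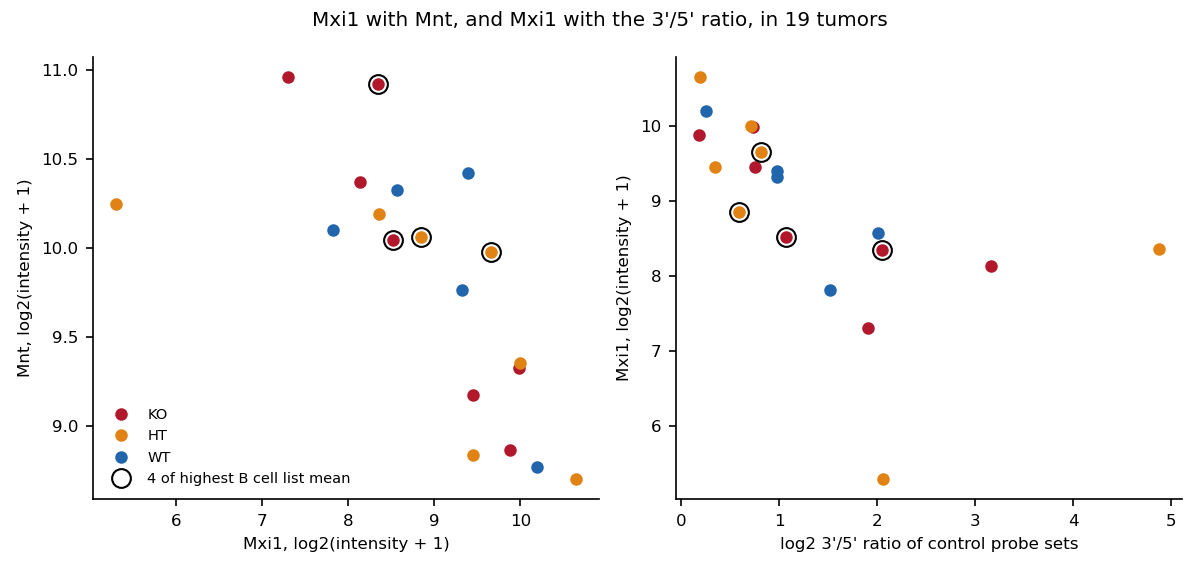
Mxi1 against Mnt (left) and against the log2 3'/5' ratio of control probe sets (right) in 19 tumors. Axes are log2(intensity + 1) for genes, points are coloured by genotype, and black rings mark the 4 B-marker-high tumors. Mnt is highest where Mxi1 is low, with rho = -0.82, and Mxi1 is lowest in tumors with a high ratio, with rho = -0.85.

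The genes whose levels were most like each member over the 19 tumors were taken by Pearson's r, as a description over 19 points that share their arrays. For Myc they were Rfwd3 (r = 0.94), which encodes a ubiquitin ligase of DNA repair, Dut (0.92), which clears dUTP, Pycrl (0.92), a proline synthesis enzyme, Bzw2 (0.91) and Dctpp1 (0.91), a nucleotide pyrophosphatase. Among the 15 tumors outside the 4 B-marker-high ones the same 5 had r of 0.81, 0.72, 0.86, 0.71 and 0.69. For Mycn they were Ngfr (0.87), a neurotrophin receptor, Rxfp1 (0.87), a relaxin receptor, Fgfbp1 (0.86), Ajuba (0.86) and Elovl3 (0.83). Mycn had a median of 4.19 over the tumors and was 9.54 in HT tumor 06. A single tumor so far out can set much of such an r, and r without it was not computed. For Max they were Slc25a1 (0.85), Psap (0.81) and Rab5c (0.81), for Mxd4 Deptor (0.83), Fhl2 (0.83) and Ythdf1 (0.81), for Mxi1 Stag2 (0.93), Lrrc28 (0.91) and Cfl2 (0.91), and for Mnt Dennd4b (0.95), Asb13 (0.95) and Zmiz2 (0.94).

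Genes around the network were read from lists in the same tumor against thymus fit, beside the all-gene share of 24.7% and median of +0.05. Of 20 genes known to be activated by MYC, 10 rose and 0 fell, with a list median of +0.47. Polr1b, a subunit of RNA polymerase I, rose by 1.33 (SE 0.254, adjusted p = 0.000411) to 8.53 ± 0.819 in 19 tumors, against 7.15 ± 0.346 in 12 thymi. Odc1, the first enzyme of polyamine synthesis, rose by 1.05 and was above every thymus in 18 of 19 tumors. Tfrc, the transferrin receptor, rose by 1.53, and Shmt2, a mitochondrial enzyme of serine and folate metabolism, by 1.01, with 16 and 15 tumors above every thymus. The all-gene share for such counts above every thymus was not computed. Of 8 genes known to be repressed by MYC, 1 rose, Cdkn1a (+1.07), and 1 fell, Cdkn1b (-0.41), both of which encode inhibitors of cyclin-dependent kinases. Within genotypes 2 of the 20 activated genes rose in KO, 0 in HT (2 at an unadjusted p under 0.05 in limma) and 7 in WT. The shares of all genes called there were 4.94% in KO, 3.53% in HT and 6.87% in WT. In female arrays alone 2 of the 20 rose, beside 10.8% of all genes called in that fit, so the list did not stand out there. Without the 4 B-marker-high tumors 12 rose and 1 fell, beside 34.2% of all genes called. Of the 15 activated genes with a RefSeq promoter, 6 held the E-box, beside 8.09% of the 27025 genes with one. The 6 were Cdk4, Eif4a1, Eif4e, Hspd1, Ldha and Nme1. Polr1b, Odc1, Tfrc and Shmt2, named above as risen, were without it.

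Of 7 further members of the MYC, MAX and MLX network above the filter, Mlx, the partner of the glucose-sensing Mondo proteins, fell by 1.06 (SE 0.133) and was below every thymus in 19 of 19 tumors. Mlxip, which encodes the Mondo protein MondoA, rose by 0.65. The other 5 did not pass. Of 12 coactivators and partners of MYC, 3 rose, with Kat2a, a histone acetyltransferase, at +1.19, Tfap4, a transcription factor and MYC target, at +0.99 and Wdr5, a chromatin adaptor of MYC, at +0.59, and Kat5, the acetyltransferase TIP60, fell by 0.31. Of 7 corepressor genes used by MXD proteins and MNT, 0 rose and 3 fell: Sin3b by 0.87, Sap30 by 0.81 and Sin3a by 0.30. Sin3b was below every thymus in 19 of 19 tumors, at 11.48 ± 0.494, against 12.41 ± 0.172 in thymi. The counts for Mlx and Sin3b compare with 3.28% of all genes that had at least 18 of 19 tumors below every thymus. Of 13 regulators of MYC protein turnover, Usp36, a deubiquitinase of MYC, rose by 0.88 and Huwe1, a ubiquitin ligase, by 0.35, while Btrc, a ubiquitin ligase subunit, fell by 0.83 and Gsk3b, the kinase that marks MYC for degradation, by 0.56.

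Of 9 Notch receptors and targets, 6 rose and 0 fell, with a list median of +2.15. Dtx1 rose by 4.87, Hes1 by 3.36, Nrarp by 2.33 and Notch1 by 2.03 (SE 0.361), and Notch1 averaged 13.34 ± 1.07 in tumors and 11.34 ± 0.293 in thymi. Of 14 cell division genes 0 rose and 2 fell, Pcna by 0.97 and Ccnb2 by 1.33, and the list median was -0.46. Markers of other cells moved in the same comparison. Of 8 fibroblast markers 5 rose, with Col1a2 at +4.17 and Col3a1 at +3.17, of 8 macrophage markers 2 rose, C1qb (+1.49) and Cd68 (+0.88), of 6 thymic epithelium markers 4 fell, with Prss16 at -5.68 and Krt8 at -3.28, and of 6 neutrophil markers S100a9 fell by 3.18. Of 9 B cell markers 0 were called in limma, and 2 had an unadjusted p under 0.05. Their part in the values of Myc and Mxi1 in bulk tumors was not tested.

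The sexes of the untreated thymi were compared because sex enters every fit, a comparison added after the values were seen. In male relative to female thymi Myc fell and Max and Mxi1 rose, 3 of 6 members beside 27% of all genes called. Myc fell by 0.57 (SE 0.106, adjusted p = 0.00322 in limma), with means of 9.73 ± 0.186 in males and 10.29 ± 0.183 in females (n = 6 each). Max rose by 0.68 (SE 0.150, adjusted p = 0.00715), with means of 8.30 ± 0.342 in males and 7.62 ± 0.248 in females. Mxi1 rose by 0.21 (SE 0.0574, adjusted p = 0.0190), with means of 10.58 ± 0.0703 in males and 10.37 ± 0.0807 in females. For each of these 3 genes 1 array of each sex overlapped the other sex, whereas 13.0% of all genes had no overlap between the sexes. Mycn (-0.31), Mxd4 (+0.09) and Mnt (-0.02) did not pass. At the probe set level, where 25.5% of probe sets were called, Mxd4 1422574_at rose by 0.59 (adjusted p = 0.00746). Of the 20 MYC-activated genes 4 fell, Cad, Tfrc, Shmt2 and Hspd1, and 1 rose, Npm1, named after their values were seen. Of 9 Notch genes 4 fell, Notch1 among them by 0.51. Markers of other cells differed too: 8 of 8 macrophage, 5 of 6 thymic epithelium and 3 of 8 fibroblast markers fell in male thymi, and their part in the result was not tested.

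**Figure D5:**
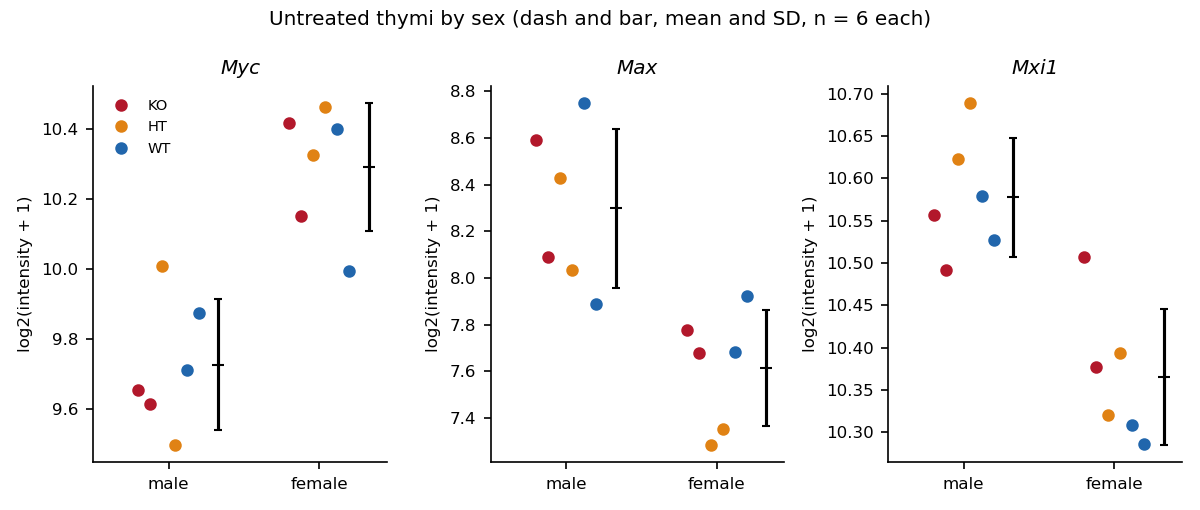
Myc, Max and Mxi1 in untreated thymi by sex. The y axis is log2(intensity + 1), points are arrays coloured by genotype, and dashes with bars are the mean and SD (n = 6 of each sex). Male thymi average 9.73 for Myc, 8.30 for Max and 10.58 for Mxi1, and female thymi 10.29, 7.62 and 10.37.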

How the data were processed

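RNA from 31 arrays (19 tumors, 12 thymi) was measured. The deposited values are linear intensities, and GCRMA is named per the submitters' processing notes, with its version not given in the sources used here; all arrays share a median of 20.0. The label protocol names a whole-transcript assay. Samples were grouped by the labels' genotype and disease status. The platform annotation named 1 gene for 34944 probe sets, several for 932 and none for 9224; 1 probe set without values was left out. Per gene the probe set of highest mean was kept, values became log2(intensity + 1), and genes under the 25th percentile of gene means (3.65) were dropped, leaving 13644 of 18192. Tests used limma 3.58.1 in R 4.3.3 with sex as covariate: all 31 arrays for tumor against thymus (mean of the 3 genotypes' differences), 1 tissue for genotypes. The code was tested on simulated data. Correlations used 100000 permutations. The number of arrays limits precision. Members and lists were chosen with earlier results of these data known. Text names the 6 members, for each list up to 4 genes of smallest adjusted p (2 for marker lists) and Notch1, and the genes most correlated with each member.

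Same-numbered thymi of 1 sex deviated together (r from 0.388 to 0.585 in 12 of 12 pairs), as did other-numbered thymi of the same sex (0.254 to 0.562). Thymi of different sex had r from -0.601 to -0.309 (24 pairs). Sex was not taken out of these deviations, and the labels do not say what a number marks. In tumors 3 of 17 same-numbered pairs had r above 0.1. Alternatives were another pseudocount, filter, normalization, probe set rule, array weights, no sex term, female arrays, the 3'/5' ratio, a replicate block and left-out arrays.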

Additional observations from a re-analysis of the deposited data

Results flagged for a closer look

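Single arrays stood far from the rest of their group for 3 members, among 36 groups tested, where chance gives about 1 in 20. Mycn was 6.68 in KO tumor 01, above the other KO tumors, and 9.54 in HT tumor 06, above the other HT tumors. Among thymi, Mycn was 4.91 in a male HT thymus, below the other HT thymi, and 5.93 in a female WT thymus, above the other WT thymi. Mxi1 was 5.30 in HT tumor 05, below the other HT tumors. Mnt was 9.51 in a male WT thymus, above the other WT thymi.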

How the results depend on the processing

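Of 2 members called in tumors relative to thymi, 0 were called in female arrays only, and 1 to 2 when arrays were left out in turn (1 without HT tumor 04 or KO tumor 02). There were 3 with the mean of a gene's probe sets (Mxd4 added) and with array weights or no sex term (Mnt added in both), and 2 with the 3'/5' ratio in the model (Mxd4 in place of Mxi1). Within WT, against 0 members called, array weights called 2, and the mean of a gene's probe sets, no sex term and the fit without the 4 B-marker-high tumors called 1 each (left-out arrays 0 to 1, with 1 without KO tumor 06). Within HT array weights called 1. Within KO array weights and the fit without those 4 tumors called 1 each (left-out arrays 0 to 1, with 1 without HT tumor 05). Of 6 relations across tumors, 1 passed without those 4 tumors, 8 with genotype-centred values and 5 to 7 with single tumors left out, and Notch list with Myc turned to r = -0.029; the causes were not tested. Genes called in tumors relative to thymi numbered 3374 in the reported fit and 1471 (female arrays) to 6389 over the alternatives, within WT 937 (124 to 3953), within HT 482 (138 to 1612) and within KO 674 (91 to 2197). With the replicate number as a block, 0 members were called in any genotype comparison, as without it, and 23, 3 and 8 genes were called in thymus for KO relative to WT, HT relative to WT and KO relative to HT. Over 3166 single values, 3005 kept direction and side of the threshold, 19 lost the call and 23 gained it. Another 118 changed sign without being called, and 1 reversed. Changes of size alone were not counted. Low signal limits Mycn, 1 Mxd4 and 1 Mnt probe set.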
